A study of Mus musculus with 8 samples.

Results

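The genes described here are 36 genes of the integrated stress response and the unfolded protein response, out of 55487 genes in the mouse count table. They were taken by name: 19 genes of the ATF4 arm (4 transcription factors, 5 effectors, 6 enzymes of serine, glycine, one-carbon and asparagine synthesis, and 4 enzymes that charge tRNA), 14 genes of the XBP1/ATF6 arm (Xbp1 itself, 10 chaperones and folding enzymes, and 3 genes for the degradation of misfolded proteins), and 3 stress sensors of the endoplasmic reticulum (ER). All 36 passed the filter on low counts that left 15411 genes to test. Each name matched 1 gene except Ddit3, which matched 2, and the second of these had 0 reads in all libraries and was not used.

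Bone marrow of WT C57/bl6 mice (C57BL/6J in the study's methods) was cultured for 10 days with GM-CSF at 20 ng/ml to give bone marrow derived dendritic cells (BMDC). The mice were 6 to 8 weeks old, female, and carried no further allele by the labels. Of the 8 libraries, 4 came from untreated BMDC, and 4 came from BMDC that had been kept for 4 h with Jurkat cells, a human T-cell leukemia line in long use, and sorted for having engulfed them (BMDC-fer). The Jurkat cells had been killed with 0.5 µM ML162, an inhibitor of GPX4 that induces ferroptosis, over 14 h. The untreated BMDC are not described as sorted, nor as kept with another kind of dead cell. Engulfment, co-culture, sorting and any ML162 carried over with the Jurkat cells therefore cannot be told apart. GM-CSF cultures of marrow hold macrophages and granulocytes beside dendritic cells, and the study's methods put the cells carrying CD11c at about 80% of the culture.

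Cells lower general translation and raise the translation of ATF4 when a kinase phosphorylates eIF2α, for example PERK (Eif2ak3) under ER stress or GCN2 when amino acids are short. ATF4, with its partners, then drives genes for amino acid synthesis, uptake and tRNA charging, and, when stress lasts, CHOP (Ddit3), TRIB3 and CHAC1. The other sensors, IRE1 (Ern1), which splices Xbp1 mRNA, and ATF6, which is cut in the Golgi, drive ER chaperones and the degradation of misfolded proteins. Dendritic cells are known for steady activity of the IRE1 and XBP1 branch. Counts per gene measure neither the splicing of Xbp1 nor the translation of Atf4, so what follows is the abundance of mRNA alone.

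The promoters of both arms carry different sequence elements, and a few are shown because they are the known binding elements of the factors of each arm, although most members had none in the windows searched. The windows reach from 250 bases before to 50 bases after each start site in RefSeq (GRCm38.p6). The C/EBP-ATF response element, to which ATF4 binds, was searched as TGATGNAA, and the ER stress response element as CCAAT, 9 bases of any kind and CCACG, both on either strand. The first was in the promoters of 6 of the 18 ATF4 arm genes with an entry (Atf3, Trib3, Chac1, Asns, Aars and Gars), in 1 of 14 of the XBP1/ATF6 arm (Herpud1), and in 3.97% of all 32851 promoters. The second was in 6 of 14 XBP1/ATF6 arm genes (Hspa5, Hsp90b1, Calr, Canx, Pdia6 and Dnajc3), in none of the ATF4 arm, and in 0.119% of all promoters. The unfolded protein response element, searched as TGACGTGG, was in no member's window and in 0.676% of all. A match describes the letters only, and genes without one, such as Pdia4, Sesn2 and Mthfd2, may hold elements elsewhere. The elements are in capitals within their surroundings, read 5′ to 3′ on the strand of the gene, and may lie on the other strand.
Asns, chr6:7693214-7693243, minus strand, noncoding exon bases of a longer Asns transcript in GENCODE M21: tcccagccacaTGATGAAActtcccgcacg
Atf3, chr1:191183416-191183463, minus strand, in an intron of a longer Atf3 transcript: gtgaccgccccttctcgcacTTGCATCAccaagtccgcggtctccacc
Gars, chr6:55037951-55037998, plus strand, upstream of the gene: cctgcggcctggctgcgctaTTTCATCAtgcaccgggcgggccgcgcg
Herpud1, chr8:94386297-94386344, plus strand, in an intron of Gm15890: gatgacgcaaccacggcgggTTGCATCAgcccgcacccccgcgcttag
Hspa5, chr2:34772020-34772048, plus strand, noncoding exon bases of a longer Hspa5 transcript: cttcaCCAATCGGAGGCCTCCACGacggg
Calr, chr8:84847055-84847113, minus strand, upstream of the gene: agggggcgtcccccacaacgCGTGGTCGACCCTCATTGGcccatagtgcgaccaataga
Canx, chr11:50325780-50325838, minus strand, upstream of the gene: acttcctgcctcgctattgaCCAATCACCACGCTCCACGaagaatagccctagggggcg
Pdia6, chr12:17266471-17266529, plus strand, upstream of the gene: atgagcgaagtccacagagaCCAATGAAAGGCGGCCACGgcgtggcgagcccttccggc

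The libraries held between 39326672 and 50532209 counts on mouse genes, so that 3 counts, taken as the floor, correspond to 0.0594 to 0.0763 CPM, counts scaled to the library's size. Replicates 1 and 2 stood apart from replicates 3 and 4 in both groups, on a first principal component with 39.9% of the variance and a second with 38.4%. Chi-square per gene was between 9 and 40.9 for libraries of the same pair and between 133 and 346 across the pairs within a group. This split is not in the labels, was known from these data beforehand, and touches nearly every result below, so most results are also given for either pair. Summed dendritic cell markers (10 genes, all detected, with Cd74 and H2-Ab1 as the largest part) were between 7140 and 15500 CPM in BMDC and between 3680 and 7840 CPM in BMDC-fer, and the sum was lower in replicates 3 and 4 of either group than in replicates 1 and 2. Of the 10 genes, 7 went with the sum in both groups, Itgax and Csf2ra were higher in replicates 3 and 4 of both, and Ccr7 was higher there in BMDC alone. Macrophage markers (9 genes, such as Csf1r and C1qa) summed to between 2580 and 3590 CPM in BMDC and between 3190 and 4780 CPM in BMDC-fer. Of the 9, 0 were called higher and 1 lower. That 1 was Adgre1, at 351 ± 39.2 CPM in BMDC against 201 ± 30.5 CPM in BMDC-fer (SD, log2 fold change -0.81, edgeR adjusted p = 0.0119). Csf1r and C1qa had higher means in BMDC-fer without a call. Neutrophil markers (9 genes) summed to between 45.2 and 263 CPM in BMDC, highest in replicates 1 and 3, and to between 13.9 and 43.9 CPM in BMDC-fer, with 5 of the 9 called lower. Mast cell and basophil markers (6 genes) summed to at most 5.78 CPM, and T lymphocyte markers, as Jurkat cells would carry, to between 53.2 and 66.1 CPM in BMDC and between 61.1 and 78.5 CPM in BMDC-fer, nearly all of it Cd28, Tal1 and Lat, with Bcl11b and Rag1 at 0 in all libraries. In bulk RNA, fewer cells of a type and less of an mRNA per cell cannot be told apart, and the part of these cell types in the results below was not tested.

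Over all 8 libraries, few stress response genes passed the test between BMDC-fer and BMDC, and how many did depended on the tool. The test was edgeR's quasi-likelihood test, adjusted over all tested genes by Benjamini-Hochberg, and to be called a gene needed an adjusted p no higher than 0.05 and a log2 fold change of at least 0.58 in either direction (SE below is the standard error of that fold change). By that measure 1 of the 36 rose in BMDC-fer (Pdia4) and 2 fell (Sesn2 and Mthfd2), where 3.47% of all tested genes rose and 5.91% fell, so the share of members called was near the background. DESeq2 with the same cutoffs called 10 members. It added Atf3 as higher (adjusted p = 0.0395) and Ddit4, Trib3, Asns, Psat1, Phgdh and Shmt2 as lower (adjusted p from 0.00525 to 0.0406), giving 2 up and 8 down where it called 5.6% of all tested genes up and 9.07% down. The arms differed in their medians. In all, 17 of 19 ATF4 arm genes had a fold change below 0, with a median log2 fold change of -0.63, and 9 of 14 XBP1/ATF6 arm genes had one above 0, with a median of 0.16. The median over all tested genes was 0.00069, and 50.1% were above 0. With the replicate number as a block in the same test, 4 members were called, against 4.85% of all genes rising and 8.13% falling: Mthfd2 lost its call (adjusted p = 0.0596), and Ddit4 and Herpud1 gained one.

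**Figure D1:**
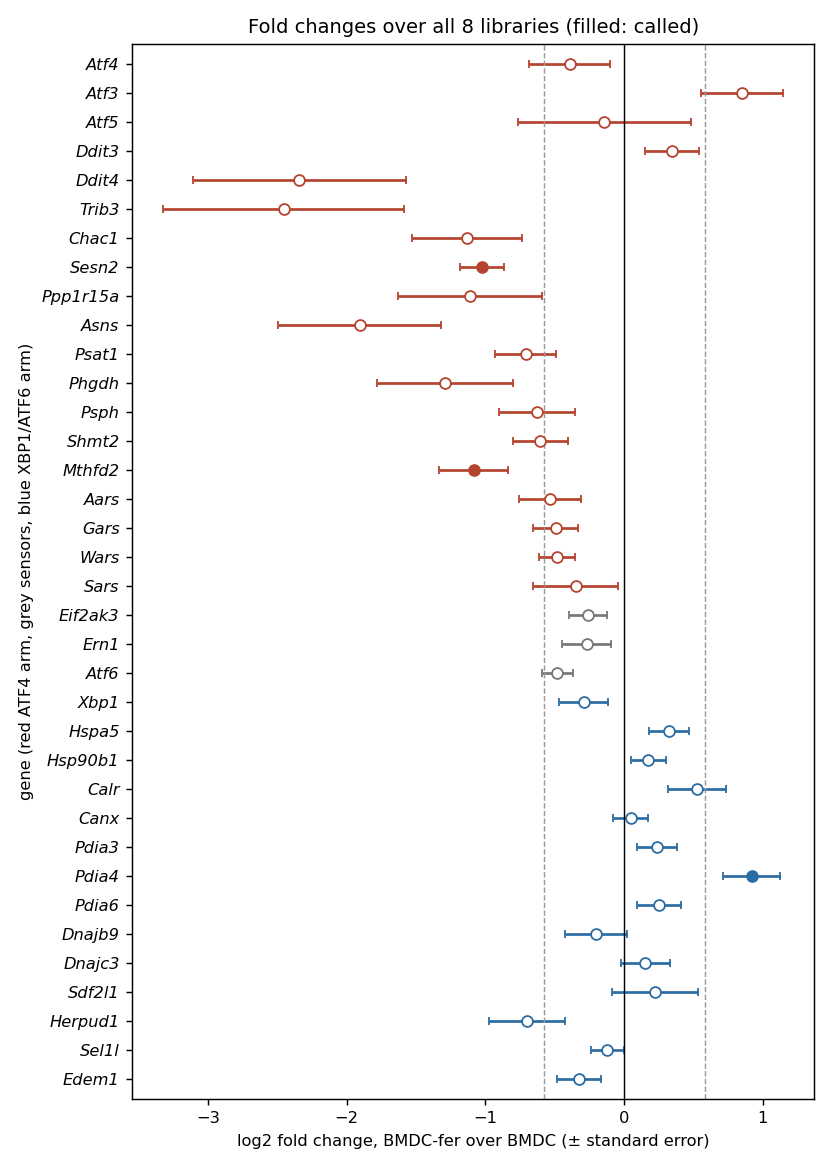
Log2 fold change of BMDC-fer over BMDC for each of the 36 genes over all 8 libraries (points, with standard errors as bars; red ATF4 arm, grey sensors, blue XBP1/ATF6 arm). Filled points mark the 3 called genes, Sesn2, Mthfd2 and Pdia4, dashed lines the threshold of 0.58, and the widest bars belong to Trib3, Ddit4, Atf5 and Asns.

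The larger pattern lay between the replicate pairs. In untreated BMDC, 17 of 19 ATF4 arm genes were higher in replicates 3 and 4 than in replicates 1 and 2, with a median of 2.03 times, where 49.6% of all tested genes were higher, with a median of 0.996 times. In BMDC-fer the same median was 0.866 times for the ATF4 arm and 1.01 times for all genes. For each library, the median over the 19 genes of log2 CPM relative to the gene's mean was -0.37, -0.35, 0.66 and 0.59 in BMDC 1 to 4, and -0.34, -0.33, -0.52 and -0.47 in BMDC-fer 1 to 4. Only BMDC 3 and BMDC 4 were above 0, and the 4 BMDC-fer libraries lay close to BMDC 1 and BMDC 2. The XBP1/ATF6 arm went the other way in BMDC, where 2 of 14 genes were higher in replicates 3 and 4 and the median was 0.718 times, against 1.08 times in BMDC-fer. Its medians by library were -0.0079, 0.15, -0.22 and -0.22 in BMDC 1 to 4, and -0.11, 0.10, 0.12 and 0.064 in BMDC-fer 1 to 4.

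**Figure D2:**
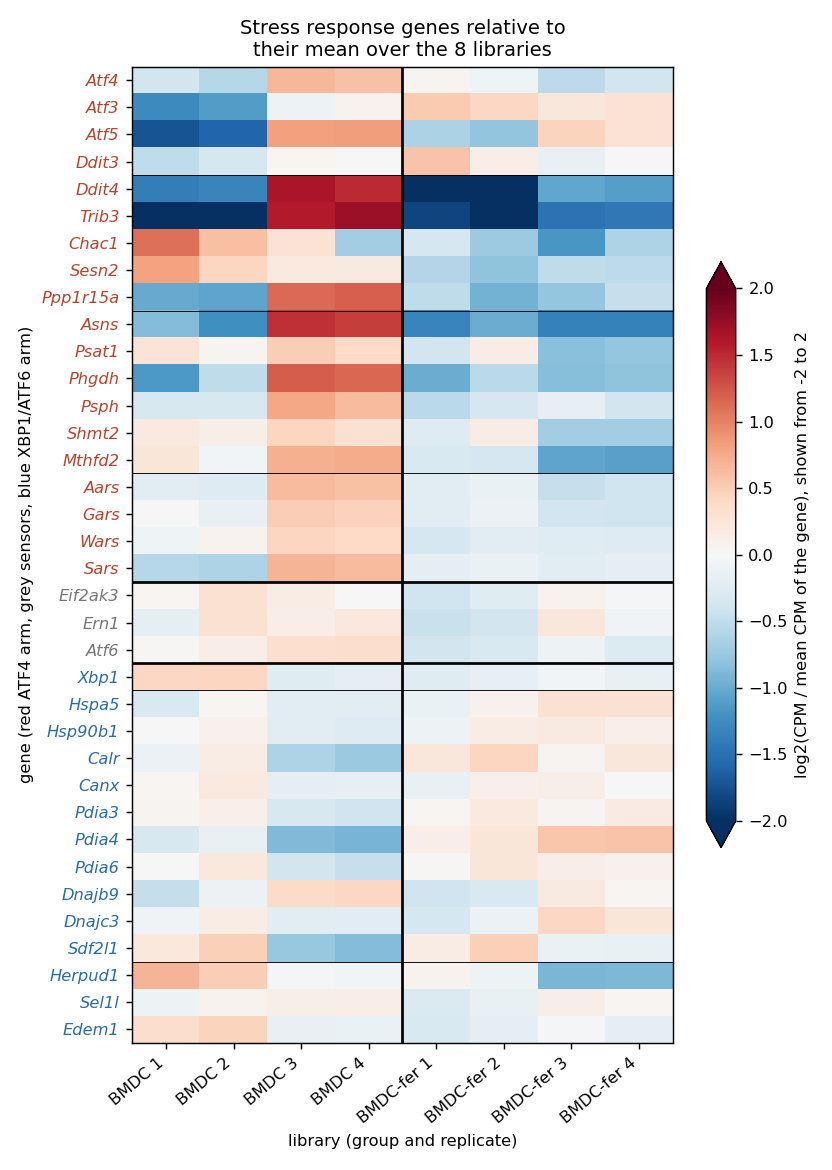
Log2 of each library's CPM over the gene's mean CPM in all 8 libraries (colour, from -2 to 2), for the 36 genes in rows and the libraries in columns. The ATF4 arm (upper block) is red in BMDC 3 and BMDC 4 for most genes, 17 of 19 being higher there than in BMDC 1 and BMDC 2, while the chaperones (lower block) are paler and blue in the same 2 libraries.

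As a result the fold change depended on the pair for most members. The test of a difference in fold change between the pairs (an interaction of group with pair in edgeR, adjusted by Benjamini-Hochberg) was passed by 26 of the 36 genes: 17 had a lower fold change in replicates 3 and 4, against 18.3% of all tested genes, and 9 had a higher one, against 19.5%. All 17 of the lower ones belonged to the ATF4 arm, where Sesn2 was the only higher one and Chac1 did not pass. In the XBP1/ATF6 arm 8 of 14 were higher and 0 lower, and none of the 3 sensors passed (1 of them, Eif2ak3, had an unadjusted p under 0.05 in edgeR; no other tool was run for this test). The genes of an arm are not independent of each other. Since the pairs were known from these data, the p of this test measures the spread within pairs of libraries and no more. The replicates of a group are described as independently collected, with no word on culture, day or run.

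Taken alone, as contrasts within 1 fit of group by pair, replicates 1 and 2 gave 3 members up (Atf3, Atf5 and Ddit3, all ATF4 arm) and 6 down (Ddit4, Chac1, Sesn2, Xbp1, Herpud1 and Edem1), against 9.36% and 12.9% of all tested genes. Replicates 3 and 4 alone gave 3 up (Pdia4, Calr and Sdf2l1, all XBP1/ATF6 arm) and 16 down, against 16.8% and 16.2%. Of these 16, 15 were ATF4 arm genes, all but Atf3, Atf5, Ddit3 and Chac1, and the other was Herpud1. The median log2 fold change of the ATF4 arm was -0.089 in replicates 1 and 2 against -1.03 in replicates 3 and 4. For the XBP1/ATF6 arm it was -0.049 and 0.42, and for all tested genes 0.0055 and 0.0051. The pairs share no library.

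**Figure D3:**
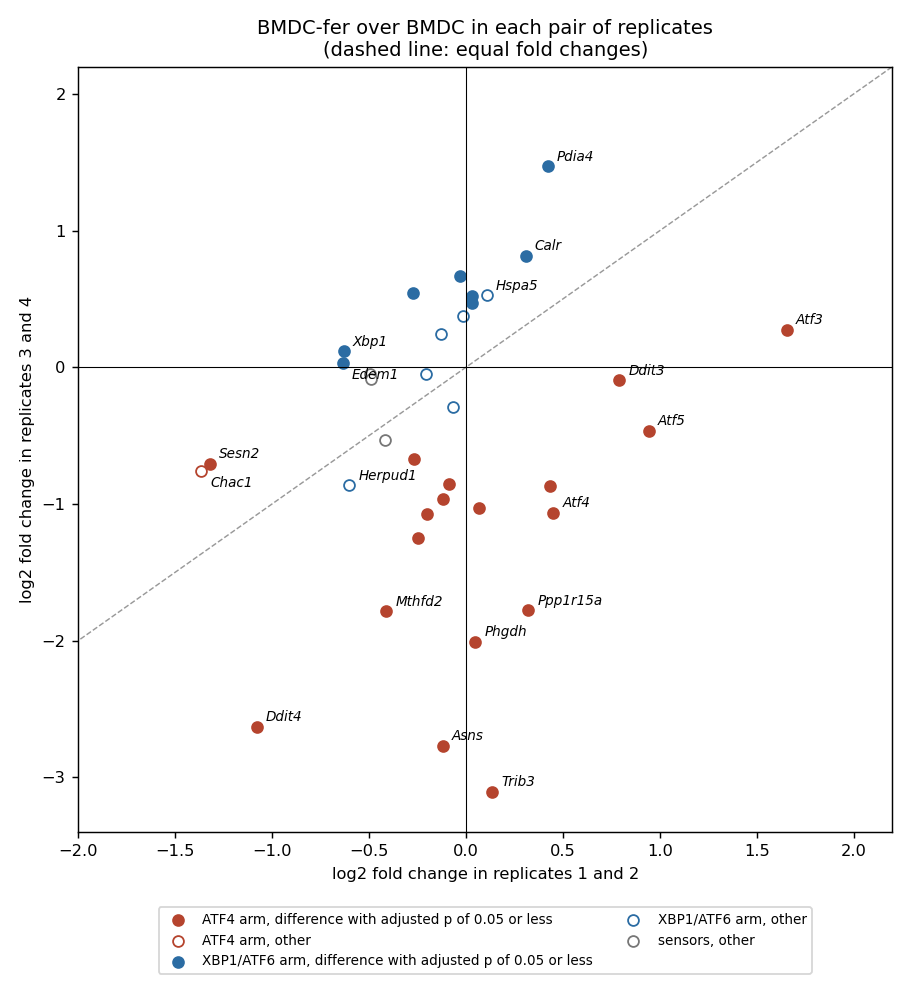
Log2 fold change of BMDC-fer over BMDC in replicates 3 and 4 (vertical axis) against that in replicates 1 and 2 (horizontal axis) for the 36 genes. Filled points differ between the pairs at an adjusted p of 0.05 or less: 17 ATF4 arm genes (red) lie below the dashed line of equal fold changes, and 8 XBP1/ATF6 arm genes (blue) and Sesn2 above it.

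Among the sensors, Eif2ak3, which encodes PERK, was at 28.2, 33.7, 30.4 and 27.2 CPM in BMDC 1 to 4 and at 20.7, 23.2, 28.8 and 27.0 CPM in BMDC-fer 1 to 4, groups that overlapped (log2 fold change -0.26, adjusted p = 0.232, and -0.50 and -0.048 in the pairs). Ern1, which encodes IRE1α, was at 31.2, 44.3, 39.3 and 41.4 CPM and at 26.2, 27.6, 41.8 and 34.03 CPM, with overlap as well (log2 fold change -0.27, adjusted p = 0.339, and -0.49 and -0.089 in the pairs). Atf6 was at 59.4, 64.6, 74.3 and 74.9 CPM in BMDC and at 45.4, 47.4, 54.7 and 48.3 CPM in BMDC-fer. It was the one sensor whose groups did not overlap, as in 11.6% of all tested genes with every BMDC-fer library lower and 11.3% with every one higher. Its log2 fold change of -0.48 (SE 0.11), with an adjusted p of 0.0293, passed the p but not the size required for a call, and was alike in the pairs (-0.42 and -0.53). Beyond Atf6, 3 members lay lower in every BMDC-fer library (Sesn2, Mthfd2 and Wars) and 2 higher (Atf3 and Pdia4).

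The transcription factors of the ATF4 arm split by pair without a call by edgeR over all libraries. Atf4 itself was at 208, 181, 423 and 403 CPM in BMDC 1 to 4 and at 277, 253, 187 and 208 CPM in BMDC-fer 1 to 4. Its mean was 304 ± 127 CPM in BMDC against 231 ± 41.2 CPM after engulfment (SD over 4 libraries of each), and the log2 fold change of -0.39 (SE 0.29) had an adjusted p of 0.396. BMDC-fer was above BMDC in replicates 1 and 2 (log2 fold change 0.45) and below it in replicates 3 and 4 (-1.06), a difference of -1.51 (SE 0.14, with an interaction p of 0.000134 after adjustment in edgeR). Atf3, an early stress-induced factor that ATF4 can drive, was at 97.4, 108, 218 and 246 CPM in BMDC and at 336, 312, 274 and 286 CPM in BMDC-fer. Every BMDC-fer library was higher, yet the log2 fold change of 0.85 (SE 0.30) had an adjusted p of 0.0951, and it was 1.66 in replicates 1 and 2 but 0.27 in replicates 3 and 4. Ddit3, which encodes the pro-apoptotic factor CHOP, was at 17.2, 19.0, 25.0 and 24.4 CPM in BMDC and at 35.9, 26.7, 22.0 and 24.2 CPM in BMDC-fer. The groups overlapped (log2 fold change 0.35, adjusted p = 0.258), and Ddit3 rose in replicates 1 and 2 alone (0.79, edgeR adjusted p = 0.0024). Exons of Ddit3 overlap those of Mars and Gm4189, and the use of strand in counting is not given, so its counts are uncertain. Atf5, a related factor under similar translational control, was 5.61 times higher in replicates 3 and 4 than in 1 and 2 of BMDC and 2.12 times higher in those of BMDC-fer, with log2 fold changes of 0.94 and -0.46 in the pairs.

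Sesn2, whose product sestrin 2 restrains mTORC1 and limits oxidative damage, was called lower in BMDC-fer under every alternative that was run. It was at 77.4, 59.4, 50.5 and 50.3 CPM in BMDC 1 to 4 and at 29.6, 25.2, 31.0 and 30.8 CPM in BMDC-fer 1 to 4, with no overlap. Its log2 fold change of -1.03 (SE 0.16) had an edgeR adjusted p of 0.00746, or 0.0126 with the replicate block, and it stayed called in 8 of 8 fits that left out 1 library. The fold change was -1.32 in replicates 1 and 2 against -0.71 in replicates 3 and 4, the reverse of the order in the 17 ATF4 arm genes with a lower fold change in replicates 3 and 4. The gene is at chr4:132492032-132510501 (minus strand, GRCm38). Its level per length was 17.1 ± 3.66 RPKM, that is CPM divided by the exonic length in kilobases, in BMDC and 8.39 ± 0.773 RPKM in BMDC-fer (SD, n = 4 each).

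Of the other effectors, Trib3, Ddit4 and Ppp1r15a passed the test of a difference between the pairs. Trib3, whose product is a pseudokinase that feeds back on ATF4, was at 3.55 and 3.33 CPM in BMDC 1 and 2, at 45.0 and 49.1 CPM in BMDC 3 and 4, and at 4.19, 3.33, 5.39 and 5.52 CPM in BMDC-fer 1 to 4. Its log2 fold change was 0.13 in replicates 1 and 2 but -3.11 in replicates 3 and 4, and -2.45 over all libraries (SE 0.87, with an adjusted p of 0.0987). Ddit4, whose product REDD1 inhibits mTORC1, was at 4.68, 4.91, 37.9 and 34.4 CPM in BMDC and at 2.35, 2.18, 5.94 and 5.71 CPM in BMDC-fer. Each BMDC-fer library was below the BMDC library of the same number. The block gave a call (log2 fold change -1.89, edgeR adjusted p = 0.0214) where the test without it did not (-2.34, adjusted p = 0.0795). Ppp1r15a encodes GADD34, the subunit that returns eIF2α to its unphosphorylated state. It was 4.60 times higher in replicates 3 and 4 than in 1 and 2 of BMDC and 1.08 times in BMDC-fer, with log2 fold changes of 0.32 and -1.78 in the pairs. Chac1, which degrades glutathione and is a common marker of ATF4 activity, was barely detected, between 0.299 and 1.04 CPM in BMDC and between 0.216 and 0.384 CPM in BMDC-fer. It had the lowest level per length of all members, 0.407 ± 0.188 RPKM in BMDC and 0.184 ± 0.0424 RPKM in BMDC-fer (SD, n = 4 each), and its log2 fold change of -1.13 had an adjusted p of 0.0975. It fell in replicates 1 and 2 (-1.37, edgeR adjusted p = 0.0279), with -0.76 in replicates 3 and 4.

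**Figure D4:**
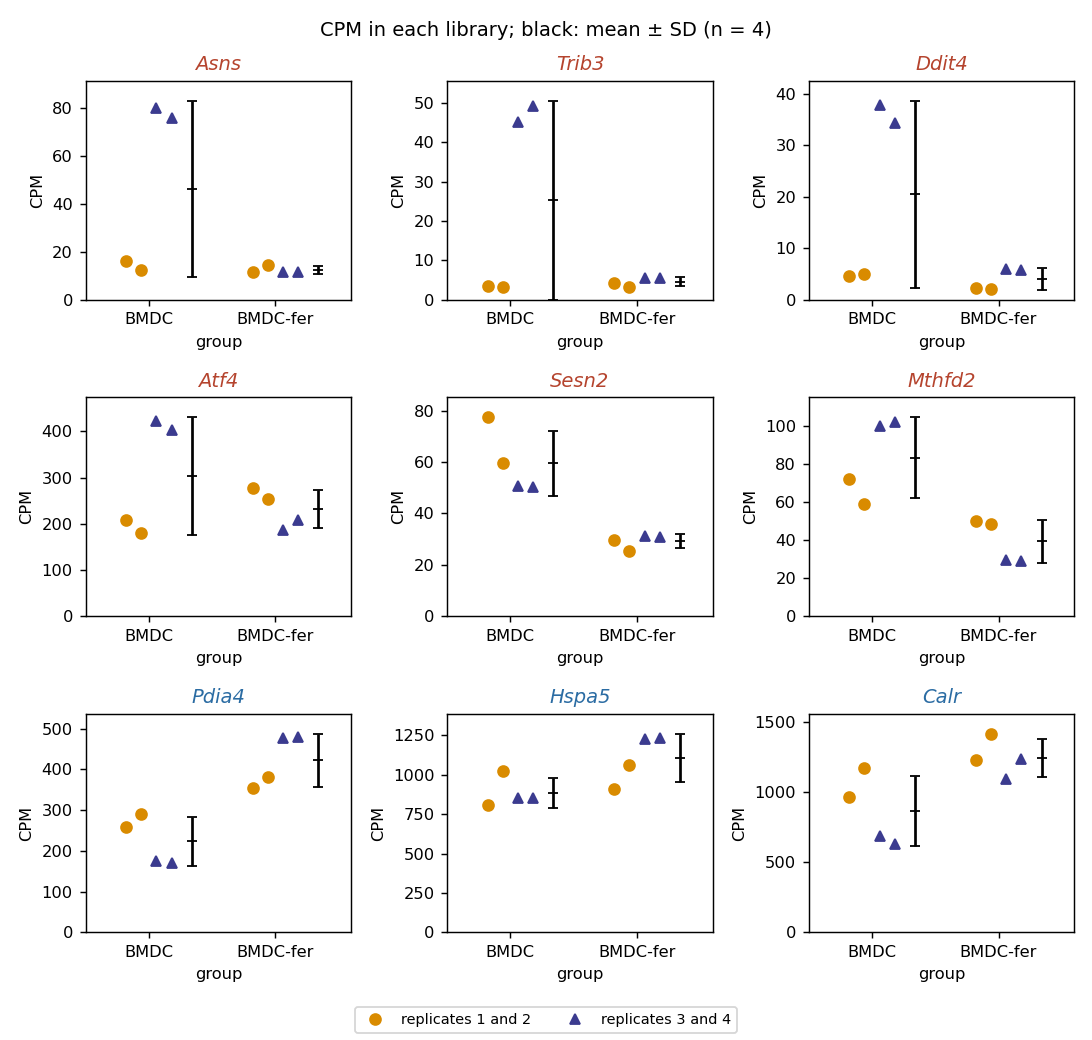
CPM in each library for 9 genes (rows of panels: Asns, Trib3, Ddit4; Atf4, Sesn2, Mthfd2; Pdia4, Hspa5, Calr), with circles for replicates 1 and 2, triangles for replicates 3 and 4, and mean ± SD (n = 4) in black. Asns, Trib3 and Ddit4 are high in BMDC 3 and BMDC 4 alone, at 80.3 and 76.0 CPM for Asns, while Sesn2, Mthfd2 and Pdia4 do not overlap between the groups.

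The 6 enzymes of amino acid and one-carbon synthesis all fell in replicates 3 and 4, and none was called in replicates 1 and 2 by edgeR. In replicates 1 and 2, 1 of them (Mthfd2) passed the edgeR adjusted p (0.00957) but not the size required. Mthfd2, the mitochondrial enzyme that oxidises one-carbon units on folate, was at 72.3, 58.8, 100.1 and 102 CPM in BMDC 1 to 4 and at 49.8, 48.7, 29.7 and 29.0 CPM in BMDC-fer 1 to 4. The groups did not overlap, and the log2 fold change of -1.08 (SE 0.25) had an edgeR adjusted p of 0.0285. The call was lost with the block and in 4 of 8 fits that left out 1 library (adjusted p of 0.0251 to 0.0831 over these), and the fold change was -0.41 in replicates 1 and 2 but -1.79 in replicates 3 and 4. Asns, the asparagine synthetase whose element is printed above, was at 16.1, 12.6, 80.3 and 76.0 CPM in BMDC and at 11.7, 14.7, 11.5 and 11.4 CPM in BMDC-fer. In replicates 1 and 2 it differed by a log2 fold change of -0.12 (adjusted p = 0.541), and in replicates 3 and 4 it fell by 2.77 on that scale (edgeR adjusted p = 4.22e-06). Over all libraries this gave -1.91 with a standard error of 0.59 and an adjusted p of 0.0680. Phgdh, which starts serine synthesis, was 3.94 times higher in replicates 3 and 4 than in 1 and 2 of BMDC and 0.945 times in BMDC-fer (log2 fold changes of 0.047 and -2.01 in the pairs). Of its 50-base words, 63.1% also occur in transcripts of other genes, so its counts may be split or shared. Psph, which ends serine synthesis, differed like Phgdh at a lower level, 2.03 times in BMDC and 1.12 times in BMDC-fer (-0.12 and -0.97 in the pairs). Psat1, between them in the pathway, and Shmt2, which makes mitochondrial glycine, were only 1.22 and 1.16 times higher in replicates 3 and 4 of BMDC, and 0.607 and 0.633 times in BMDC-fer. In these 2 genes BMDC-fer differed between the pairs more than BMDC did.

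The 4 enzymes that charge tRNA, with alanine (Aars), glycine (Gars), tryptophan (Wars) and serine (Sars), gave a similar picture in replicates 3 and 4. All fell there, with log2 fold changes from -1.03 (Aars) to -0.67 (Wars). None was called in replicates 1 and 2 by edgeR, where they ranged from -0.27 (Wars) to 0.43 (Sars). In that pair Sars rose and Wars fell with an edgeR adjusted p of 0.00149 and 0.0259, but below the size required. Sars was at 101, 97.7, 241 and 234 CPM in BMDC and at 132, 137, 128 and 132 CPM in BMDC-fer, the narrowest spread of any member in that group at 1.07 times from lowest to highest. Wars was lower in every BMDC-fer library (log2 fold change -0.48, adjusted p = 0.0468) but below the size required. Of the 50-base words of Aars 22.4% occur in other transcripts, and 15.1% of its exon bases overlap another gene.

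In the XBP1/ATF6 arm, Pdia4, a protein disulfide isomerase of the ER lumen, was the one member that rose over all libraries. It was at 258, 290, 175 and 170 CPM in BMDC 1 to 4 and at 353, 381, 476 and 480 CPM in BMDC-fer 1 to 4, with no overlap. Its log2 fold change of 0.92 (SE 0.21) had an edgeR adjusted p of 0.0255, or 0.0451 with the replicate block. In replicates 1 and 2 it was 0.42, and in replicates 3 and 4 1.47 (difference 1.05, SE 0.12, adjusted p = 0.000381), and the call was kept in 3 of 8 fits without 1 library. Pdia4 is at chr6:47796141-47813430 (minus strand, GRCm38), and its level per length was 93.1 ± 25.1 RPKM in BMDC and 176 ± 27.1 RPKM in BMDC-fer (SD, n = 4 each).

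Xbp1, the transcription factor of the arm, was at 352, 354, 221 and 230 CPM in BMDC 1 to 4 and at 222, 234, 253 and 237 CPM in BMDC-fer 1 to 4. BMDC 1 and BMDC 2 stood above the other 6 libraries, so Xbp1 fell in replicates 1 and 2 (log2 fold change -0.63, edgeR adjusted p = 0.000391) and not in replicates 3 and 4 (0.12, adjusted p = 0.219). Edem1, which helps to remove misfolded glycoproteins, had the same shape (-0.63 and 0.034). Hspa5, the chaperone BiP and the standard readout of ER stress, was at 809, 1021, 852 and 851 CPM in BMDC and at 909, 1062, 1225 and 1233 CPM in BMDC-fer. The groups overlapped (log2 fold change 0.33 with SE 0.14, adjusted p = 0.167), and the difference between the pairs (0.11 and 0.53) had an adjusted p of 0.0818. In replicates 3 and 4 alone, Hspa5 passed the edgeR adjusted p (0.00582) but not the size required.

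Calr, which encodes the glycoprotein chaperone calreticulin, was between 631 and 1170 CPM in BMDC and between 1095 and 1418 CPM in BMDC-fer. Its log2 fold change was 0.52 (adjusted p = 0.132) over all libraries, and it rose in replicates 3 and 4 (0.82, edgeR adjusted p = 0.000603). It had the highest level per length of the 36 genes, 300.3 ± 87.0 RPKM in BMDC and 432 ± 46.1 RPKM in BMDC-fer (SD, n = 4 each), followed by Pdia3 at 216 ± 38.2 RPKM and Hspa5 at 209 ± 22.2 RPKM in BMDC, whose spreads overlap. Sdf2l1, a cofactor of BiP, was 0.448 times as high in replicates 3 and 4 as in 1 and 2 of BMDC and rose in replicates 3 and 4 (0.67, adjusted p = 0.00186). The remaining folding enzymes and chaperones, Hsp90b1 (GRP94), Canx (calnexin), Pdia3, Pdia6 and Dnajc3 (the PERK inhibitor p58IPK), had log2 fold changes between 0.05 and 0.25 over all libraries. None of them was called over all libraries or in either pair. In replicates 3 and 4 all but Canx passed the adjusted p but not the size required (edgeR adjusted p from 0.00224 to 0.0110). Their log2 fold changes there were 0.54 for Dnajc3, 0.52 for Pdia6, 0.47 for Pdia3 and 0.37 for Hsp90b1. Dnajb9, a cochaperone that restrains IRE1, was 1.61 times higher in replicates 3 and 4 of BMDC, against the direction of the other chaperones, and 1.37 times in those of BMDC-fer (log2 fold change -0.20).

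Herpud1, which serves the degradation of misfolded proteins and has the ATF4 element printed above, was lower in BMDC-fer in all 4 replicate numbers. It was at 128, 112, 78.9 and 76.5 CPM in BMDC and at 83.5, 74.6, 42.3 and 43.0 CPM in BMDC-fer. Since replicates 3 and 4 were lower in both groups, its log2 fold change of -0.70 had an adjusted p of 0.126 without the block and 0.0096 with it (-0.73). The pairs gave -0.60 and -0.86, and it fell in both. Sel1l, a part of the same degradation machinery, was near even at -0.12 (adjusted p = 0.518), with -0.21 and -0.047 in the pairs.

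The ATF4 arm spread more widely in BMDC than in BMDC-fer, which largely restates the difference between the pairs of BMDC and is not a separate result. The highest library was more than the lowest by a wider factor in BMDC for 16 of its 19 genes, against 62% of all tested genes. This was so for 10 of 14 XBP1/ATF6 arm genes (71.4%), nearer to that share, and for 1 of 3 sensors. The median factor of the ATF4 arm was 2.34 in BMDC and 1.40 in BMDC-fer. For all tested genes it was 1.62 and 1.43.

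Among 118 further tested genes of these pathways, taken from lists written for this purpose, 4 rose and 7 fell over all libraries, again near the 3.47% and 5.91% of all genes. Of 8 amino acid transporters tested, 3 fell: Slc7a5, which carries leucine and other large amino acids (log2 fold change -1.59, adjusted p = 0.0142), Slc1a4, which carries serine and alanine (-1.95, adjusted p = 0.0344), and Slc7a1, which carries arginine (-1.14, adjusted p = 0.0296, and 0.0650 with the block). Slc7a5 was at 106 ± 22.3 CPM in BMDC against 35.1 ± 14.5 CPM after engulfment (SD over 4 libraries of each), and fell in both pairs (-0.86 and -2.47). Of 17 further partners and targets of ATF4, Pck2, the mitochondrial PEP carboxykinase (-1.38, adjusted p = 0.0129), and Aldh18a1, of proline synthesis (-1.03, adjusted p = 0.00726), fell, and the death receptor gene Tnfrsf10b rose (0.79, adjusted p = 0.0278). Of 17 further genes of tRNA charging, Mars fell (-0.73, adjusted p = 0.00799), and this gene overlaps Ddit3.

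In the other lists, Eif2b3, a subunit of the exchange factor that eIF2 phosphorylation inhibits, rose among 14 genes of eIF2 control (0.71, adjusted p = 0.0131). Pdia5 rose among 19 further folding genes (0.91, adjusted p = 0.0352), and Kdelr2, which retrieves ER proteins, among 20 of translocation and transport (0.59, adjusted p = 0.0187). Crebrf, a regulator of the unfolded protein response, fell among 10 related factors (-1.12, adjusted p = 0.00561), equally in both pairs (-1.14 and -1.10). None of 13 further degradation genes was called by edgeR without the block, with 4 at an unadjusted p under 0.05. With the block edgeR called 1 of them higher, and DESeq2 called 1 higher. All of the genes called in these lists had the same sign in both pairs, such as Slc1a4 (-1.44 and -2.93), Pck2 (-0.79 and -1.84), Pdia5 (0.52 and 1.26) and Eif2b3 (0.86 and 0.55). Over the 118 genes, the fold change was lower in replicates 3 and 4 for 37 and higher for 25, against 18.3% and 19.5% of all tested genes, and among the 17 ATF4 partners and targets for 9 and 1.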

How the data were processed

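Mouse mRNA was sequenced from 4 libraries of untreated BMDC and 4 of BMDC-fer. Per the labels and methods, the authors mapped reads with HISAT2 (build mm10), counted them per gene with featureCounts against mouse and human, and deposited raw counts per mouse gene without normalization. Not given in the sources used here are the gene models, whether counting used strand, and what was done with reads of more than 1 location. Human counts were not analysed here, and Jurkat reads counted on mouse genes were not tested for. Libraries were matched to groups and numbers by their titles.

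Identifiers were named from GENCODE M21 (55227 of 55487 had a symbol). Counts were fitted in R 4.3.3 with edgeR 4.0.16 (TMM, filterByExpr with a count minimum of 10, quasi-likelihood tests, Benjamini-Hochberg adjustment over 15411 genes). The cutoffs of a call (0.05 for the adjusted p, 0.58 for the log2 fold change in either direction) follow the study's methods. All adjusted p in the text come from edgeR unless DESeq2 (1.42.0), an alternative that the authors used, is named. CPM used TMM library sizes, and RPKM the exonic length. The tests were checked on simulated counts drawn independently for each library. That check does not cover libraries that go together by pair, as these do. Deviations from the group means correlated between the groups for every replicate number (0.313 to 0.445). They did so too for the other number of the same pair (0.186 to 0.379) and not across pairs (-0.387 to -0.278). The first 2 ranges overlap, so these values show the split between the pairs. They do not show that libraries of the same number belong together. No 2 libraries differed by less than the sampling noise. The labels do not say what a number shares, so p-values measure the spread between these libraries, which may be technical.

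The members, the further pathway lists, the marker lists and the replicate pairs were chosen with earlier results of these data known. All members are named. Values in every library are given for called members and for Atf4, Atf3, Ddit3, Xbp1, Hspa5, Eif2ak3, Ern1 and Atf6, and, chosen after their values were seen, for Trib3, Ddit4, Asns, Sars and Herpud1. From each further list, called genes are named up to 3 in either direction, by size.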

Additional observations from a re-analysis of the deposited data

Results flagged for a closer look

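In the 72 groups of 4 libraries tested for an outlying value (36 genes in each group), 1 library stood out, where chance gives about 1 in 20. It was Asns in BMDC-fer 2, at 14.7 CPM against 11.4 to 11.7 CPM in the other BMDC-fer libraries, a gap of 0.915 of the whole range. Its level there was still within the range of BMDC 1 and BMDC 2.

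The effect differed between replicates 1 and 2 and replicates 3 and 4, by an interaction of group with pair in edgeR (Benjamini-Hochberg adjusted), for 18 of 19 genes of the ATF4 arm and for 8 of 14 of the XBP1/ATF6 arm. In the ATF4 arm 17 had a lower fold change in replicates 3 and 4 and 1 a higher one, and in the XBP1/ATF6 arm all 8 had a higher one. Of all tested genes, 18.3% passed with a lower fold change there and 19.5% with a higher one. The pairs are not groups of the study. The sum of the dendritic cell markers was lower in replicates 3 and 4 of either group, with 7 of 10 genes lower in both and Itgax and Csf2ra higher in both. The sum of the macrophage markers was lower there as well, with 7 of 9 genes lower in both groups and Cd68 higher in both. The part of either set of markers in this difference was not tested. What else separates the pairs, such as culture, day or run, cannot be told apart.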

How the results depend on the processing

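Of 36 members, 3 were called. The count was 10 with DESeq2, 9 and 19 in replicates 1 and 2 or 3 and 4 alone, 5 by adjusted p alone, and 1 to 7 when 1 library was left out, lowest without BMDC 3, BMDC 4, BMDC-fer 3 or BMDC-fer 4 and highest without BMDC 2. For the ATF4 arm, 0 were called up, but 1 with DESeq2 (Atf3) and 3 in replicates 1 and 2 alone. Down, 2 were called, but 8 with DESeq2, 15 in replicates 3 and 4 alone, and 1 to 6 without 1 library. For the XBP1/ATF6 arm, 1 was called up, but 0 in replicates 1 and 2 alone, 3 in replicates 3 and 4 alone, and 0 to 1 without 1 library. Down, 0 were called, but 1 with the replicate block (Herpud1), 3 in replicates 1 and 2 alone, and 1 in replicates 3 and 4 alone. Over all genes, 1445 were called, but 2261 with DESeq2, 3435 and 5092 in the pairs alone, and 565 to 1440 without 1 library. Of the difference between pairs, 26 members passed, and 25 or 31 with other size factors or no filter. The replicate block gave 4 members called and 2000 genes, and beyond Mthfd2, Ddit4 and Herpud1 it changed no other member's call.

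Log2 fold changes that changed sign were, in replicates 1 and 2 alone, Atf4 (0.45), Atf5 (0.94), Trib3 (0.13), Ppp1r15a (0.32), Phgdh (0.047), Aars (0.069), Sars (0.43), Hsp90b1 (-0.014), Canx (-0.13), Dnajc3 (-0.28) and Sdf2l1 (-0.032). In replicates 3 and 4 alone they were Ddit3 (-0.097), Xbp1 (0.12) and Edem1 (0.034). Atf5 also turned with the replicate block (0.23), without BMDC 3 (0.24), BMDC 4 (0.25), BMDC-fer 1 (0.019) or BMDC-fer 2 (0.044), lay between -0.44 and 0.25 over all fits without 1 library, and Canx turned without BMDC 3 (-0.0052). None of these was called over all libraries by edgeR. The cause was not tested.

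Depth does not limit these genes apart from Chac1, with 9 to 45 counts per library. The limits are 4 libraries a group in 2 unlabelled pairs, a control not described as sorted, mixed cultures, and mRNA counts that miss splicing and translation.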
